A study of Mus musculus with 6 samples.

Results

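Genes of the bone morphogenetic protein (BMP) pathway were followed in MN9D cells, a mouse dopaminergic cell line, after transfection with the transcription factor Lmx1a. The set held 10 of the 17865 genes named on the array, chosen for their place in the pathway: the ligands Gdf7, Bmp4, Bmp6 and Bmp7, the receptor Bmpr1a, the signal transducers Smad1 and Smad4, and the target genes Id1, Id2 and Id3. Every array probe annotated with one of these symbols was taken, giving 14 of 31769 probes. Bmp4 and Bmp6 had 2 probes each, Bmpr1a had 3 and the other genes 1. Where a gene had several, the brightest was its leading probe.

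Cells of the Lmx1a group received pcDNA3.1(-)-Lmx1a, which carries the complete mouse coding sequence, and control cells the empty pcDNA3.1(-). pBluescript SKII(+) served as carrier DNA, and cells were split some hours after transfection and harvested near confluence. There were 3 RNA pools of Lmx1a-transfected cells, each from 3 dishes, and 1 pool of control RNA from 9 dishes. Each Lmx1a pool was hybridised against the control pool on 2 two-colour arrays with the dyes exchanged, so that 6 arrays gave n = 3 pools. All values are means over a mixture of transfected and untransfected cells, in which more cells carrying a transcript and more transcript per cell cannot be told apart. The control pool is 1 sample, so the spread between control cultures does not enter any p-value or interval, and whether the 3 pools came from separate transfections is not given in the sources used here.

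BMP and GDF ligands are secreted dimers of the TGF-beta superfamily. They bring together type II receptors and type I receptors such as Bmpr1a, and the type I receptors phosphorylate Smad1 and its relatives. The phosphorylated Smads join the common partner Smad4, enter the nucleus and act on target genes, of which the Id genes are the classic example. Id proteins lack a DNA-binding region and hold E proteins, their basic helix-loop-helix partners, away from DNA. In the dorsal neural tube the roof plate secretes BMPs and Gdf7, and Lmx1a is required for the roof plate to form in the mouse.

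RefSeq's table of start-site windows (build GRCm38.p6) held 7 of the 10 genes. The 250 bases before the start are shown, on the gene's own strand, for Gdf7, the roof plate ligand, and for Id2 and Id3, a pair of readout genes of the pathway. Both strands were searched for GGCGCC, a GC-rich motif bound by Smads, for CAGACA, a Smad box, and for TAAT, the core letters recognised by homeodomain proteins such as Lmx1a. Capitals mark the matches.
Gdf7, minus strand, chr12:8301955-8302204: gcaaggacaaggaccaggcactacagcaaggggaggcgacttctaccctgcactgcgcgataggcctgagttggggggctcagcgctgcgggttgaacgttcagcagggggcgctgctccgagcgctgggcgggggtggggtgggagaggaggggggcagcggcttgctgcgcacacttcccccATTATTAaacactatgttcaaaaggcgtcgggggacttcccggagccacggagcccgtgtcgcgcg
Id2, minus strand, chr12:25096093-25096342: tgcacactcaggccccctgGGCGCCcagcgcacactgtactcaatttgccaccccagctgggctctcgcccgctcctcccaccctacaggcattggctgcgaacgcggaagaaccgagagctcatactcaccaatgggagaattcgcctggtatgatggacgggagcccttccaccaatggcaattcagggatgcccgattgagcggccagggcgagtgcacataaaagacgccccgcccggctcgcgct
Id3, plus strand, chr4:136143572-136143821: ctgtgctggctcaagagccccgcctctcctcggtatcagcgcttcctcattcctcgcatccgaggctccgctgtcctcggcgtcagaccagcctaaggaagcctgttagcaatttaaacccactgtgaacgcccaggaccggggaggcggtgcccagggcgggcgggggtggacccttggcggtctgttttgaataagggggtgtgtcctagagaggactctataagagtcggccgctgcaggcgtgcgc
The Gdf7 window held 2 overlapping TAAT matches, at -66 and -63 from the start. The Id2 window held GGCGCC once, at -231, and the Id3 window matched none of these motifs. Of the windows not shown, those of Bmp4 and Smad1 held TAAT, at -6 and -144. The Bmpr1a window held GGCGCC at -198, and the Bmp6 window matched none. Of 32851 windows of this length in the whole table, 9.59% held GGCGCC, 17.1% CAGACA and 54.9% TAAT, so a TAAT match is common. These matches describe letters only. The sequences of the array's probes were not used here.

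Lmx1a itself was checked first. Its log2 ratio of Lmx1a over control was 2.49 ± 0.68 (SD, n = 3 pools) and was positive on 6 of 6 arrays. Its limma adjusted p over all probes was 0.0779 over the pools, and 0.0121 when the 6 arrays were fitted singly with the pool number as a replicate block. Replicate 1 with Lmx1a RNA in Cy3 gave 0.93, a ratio over a control spot that was not detected, and the other arrays gave 2.50 to 3.195. With plain background subtraction the mean was 3.79. The array at 0.93 was the dimmest, with a median net brightness (spot mean minus local background) of 9.02 units in the Lmx1a channel and 12.9 in the control channel, against 20 to 42.4 and 16.7 to 38.7 on the others. A spot counted as detected where its mean exceeded the local background median by 2 background standard deviations. Among dopaminergic markers, Th, Ddc and Slc18a2 were detected in both channels of every array, while Slc6a3, Pitx3 and Foxa2 were detected on none. Among markers of other cell types, the astrocyte marker S100b, the oligodendrocyte markers Sox10 and Mog, the microglial marker Aif1 and the fibroblast marker Col1a2 were detected in both channels of every array, while Gfap, Olig1 and Col3a1 were detected on none.

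The members had small ratios. No probe of the array passed an adjusted p of 0.05 in limma's test over the 3 pools (0 of 31769, 0%), and accordingly 0 of the 14 member probes did; the lowest adjusted p among them was 0.258, for Smad1. At an unadjusted p under 0.05 there were 4 of the 14, namely Bmpr1a, Smad1 and Id3 with positive ratios and Id1 with a negative one, where 11.8% of all probes (3743) lay under that value. A fit of the 6 arrays with a replicate block (the pool number) and a dye term called 1.05% of all probes (333) and 0 of the 14 members, with a lowest adjusted p of 0.166 for Bmpr1a. Median log2 ratio was 0.018 over the 10 leading probes and 0.001 over the leading probes of all 17865 named genes. With median centring it was 0.007 over the 10, where the median of all probes was -0.0186. The 10 ratios ran from -0.052 for Id1 to 0.077 for Bmpr1a, and 90% of all probes lay between -0.060 and 0.066.

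**Figure D1:**
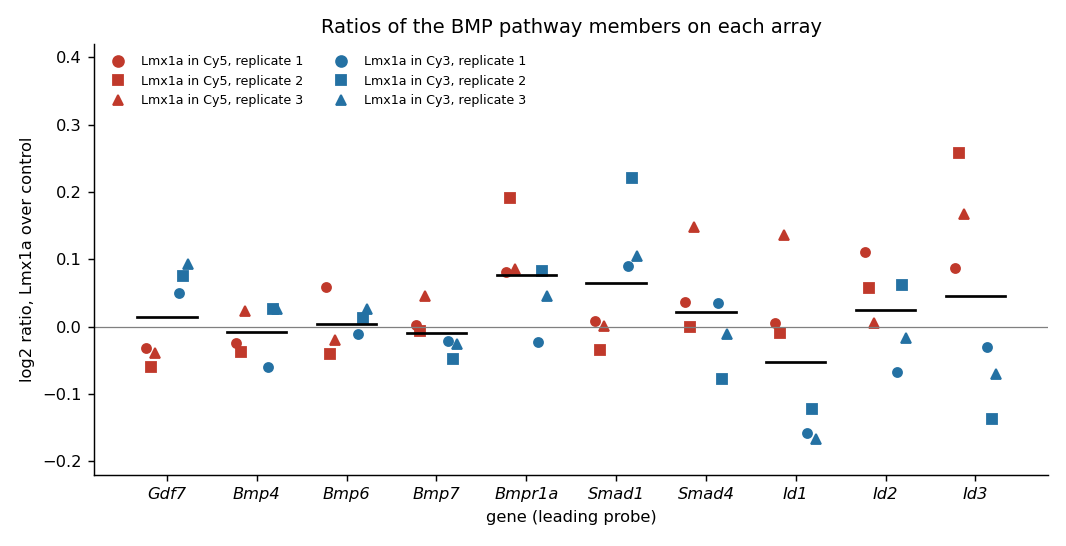
Log2 ratio of Lmx1a over control (vertical axis) for the leading probe of each of the 10 genes on each of 6 arrays, with Lmx1a RNA in Cy5 in red, Lmx1a RNA in Cy3 in blue, replicate by symbol, and the mean as a bar. All ratios lie between -0.167 and 0.258, and for Id3 the red points lie above 0 and the blue points below.

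The 4 ligands showed no ratio that passed the test. Gdf7, a ligand made by the roof plate, was not detected in either channel on any of the 6 arrays. Its net brightness was 0.551 to 5.32 units in the Lmx1a channel and -0.39 to 4.25 in the control channel. Its log2 ratio of 0.015 (-0.031, -0.060 and -0.039 with Lmx1a RNA in Cy5, and 0.050, 0.075 and 0.094 with Lmx1a RNA in Cy3) was thus computed between spots at background, and no fold is given for it.

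Bmp4, which patterns dorsal neural tissue and many embryonic organs, was detected in both channels on 5 of 6 arrays, the exception being the dimmest. The leading probe had log2 ratios of -0.024, -0.038 and 0.023 in replicates 1, 2 and 3 with Lmx1a RNA in Cy5 and of -0.060, 0.027 and 0.027 with Lmx1a RNA in Cy3. The signs were mixed within both orientations. The mean was -0.0075 ± 0.033 (SD, n = 3), with a 95% interval of -0.056 to 0.041, or 0.962-fold to 1.03-fold. A second Bmp4 probe gave 0.022 ± 0.018, so the sign of the gene's ratio depended on the probe. Without replicate 1 the leading probe was at 0.0096. With plain background subtraction it was at -0.0568, below the interval given above.

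Bmp6, a ligand also secreted by the roof plate, was detected in both channels of all 6 arrays by its leading probe. Its ratios were 0.058, -0.041 and -0.020 with Lmx1a RNA in Cy5 and -0.011, 0.013 and 0.026 with Lmx1a RNA in Cy3. These also fell on both sides of 0, with a mean of 0.0044 ± 0.019 and an interval of -0.0375 to 0.046; without replicate 1 it was -0.0053. The dimmer Bmp6 probe, detected on 5 arrays, gave -0.019 ± 0.017.

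Bmp7, a roof plate ligand that pairs with other BMPs and GDFs, had log2 ratios of 0.0023, -0.0063 and 0.045 with Lmx1a RNA in Cy5 and of -0.021, -0.047 and -0.026 with Lmx1a RNA in Cy3. The mean was -0.0088 ± 0.018, with an interval of -0.051 to 0.033, or 0.966-fold to 1.02-fold, and without replicate 2 it was 0.00015. Its net brightness was low, at 5.01 to 27.9 units in the Lmx1a channel and 7.49 to 26.7 in the control channel. The background correction used here pulls ratios of such dim spots towards 0, so the interval does not bound the change in transcript. With plain background subtraction the Bmp7 ratio was -0.0578, below that interval. With a stricter rule of 3 background standard deviations it was detected on 2 arrays, against 5 with the rule used here.

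**Figure D2:**
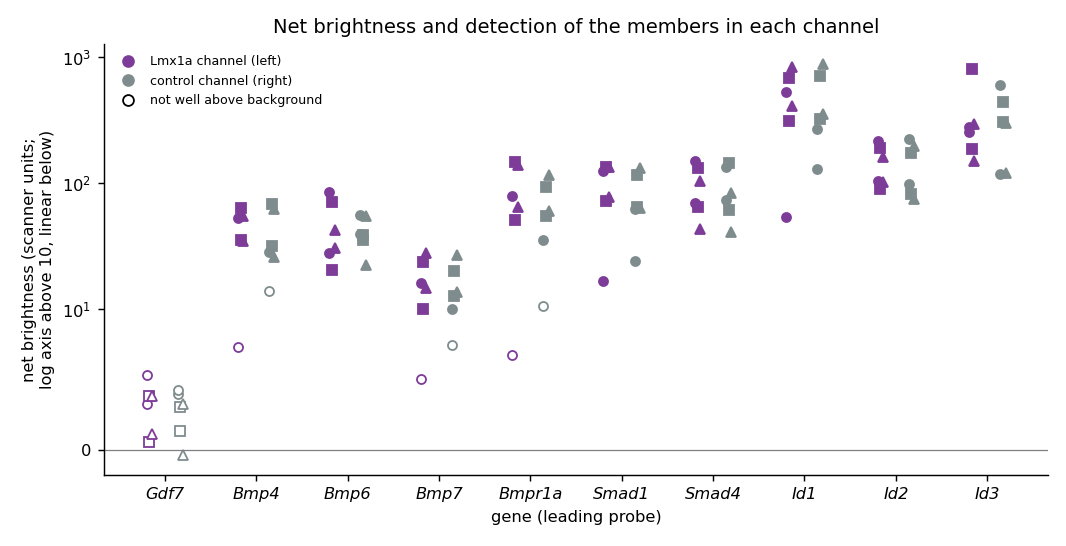
Net brightness (scanner units, log axis above 10) of each leading probe in the Lmx1a channel (purple, left) and the control channel (grey, right) of each array, with open symbols where the spot was not well above background. Gdf7 is open throughout, and the open symbols of Bmp4, Bmp7 and Bmpr1a come from the dimmest array.

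Bmpr1a encodes a type I BMP receptor. In the Lmx1a channel its leading probe read 78.7, 146 and 139 units in replicates 1, 2 and 3 with Lmx1a RNA in Cy5, against 35.6, 54.8 and 60.1 in the control channel in Cy3. With the dyes exchanged it read 6.75, 51.1 and 64.6 units in the Lmx1a channel, against 10.7, 93.7 and 117 in the control channel. The Cy5 reading was the higher one on every array, and so these brightnesses compare RNAs only after dye normalisation. After it, the log2 ratios were 0.081, 0.191 and 0.085 with Lmx1a RNA in Cy5 and -0.023, 0.083 and 0.046 with Lmx1a RNA in Cy3, positive on 5 of 6 arrays. The negative value came from the dimmest array, where the probe was not detected.

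The mean Bmpr1a ratio was 0.077 ± 0.055 (SD, n = 3), or 1.05-fold, the highest of the 10 leading probes, with a log2 interval of 0.016 to 0.138 and a limma adjusted p of 0.316. Its other probes gave lower values. A probe detected on all arrays gave 0.033 ± 0.052, with -0.0275 in replicate 2, and one detected on no array gave -0.013 ± 0.016. Averaged over the 3 probes the ratio was 0.032.

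Smad1 and Smad4 stand next in the pathway. Smad1, the receptor-activated transducer of BMP signals, had log2 ratios of 0.0086, -0.035 and 0.0007 with Lmx1a RNA in Cy5 and of 0.090, 0.221 and 0.105 with Lmx1a RNA in Cy3. All of the higher values came from the arrays with Lmx1a RNA in Cy3, and the orientations did not overlap. Averaged over the exchange, the pools gave 0.049, 0.093 and 0.053, with a mean of 0.065 ± 0.024, or 1.05-fold (log2 interval 0.021 to 0.109), and a limma adjusted p of 0.258. On the arrays with Lmx1a RNA in Cy5 alone the mean was -0.0087.

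Smad4, the shared partner of BMP and TGF-beta Smads, had ratios of 0.036, 0.0 and 0.148 with Lmx1a RNA in Cy5 and of 0.035, -0.077 and -0.011 with Lmx1a RNA in Cy3. Replicate 2 rounded to 0.0 with Lmx1a RNA in Cy5 and was negative with Lmx1a RNA in Cy3. The mean was 0.022 ± 0.055, with an interval of 0.973-fold to 1.06-fold and a limma adjusted p of 0.834. Without replicate 3 it was -0.0014.

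**Figure D3:**
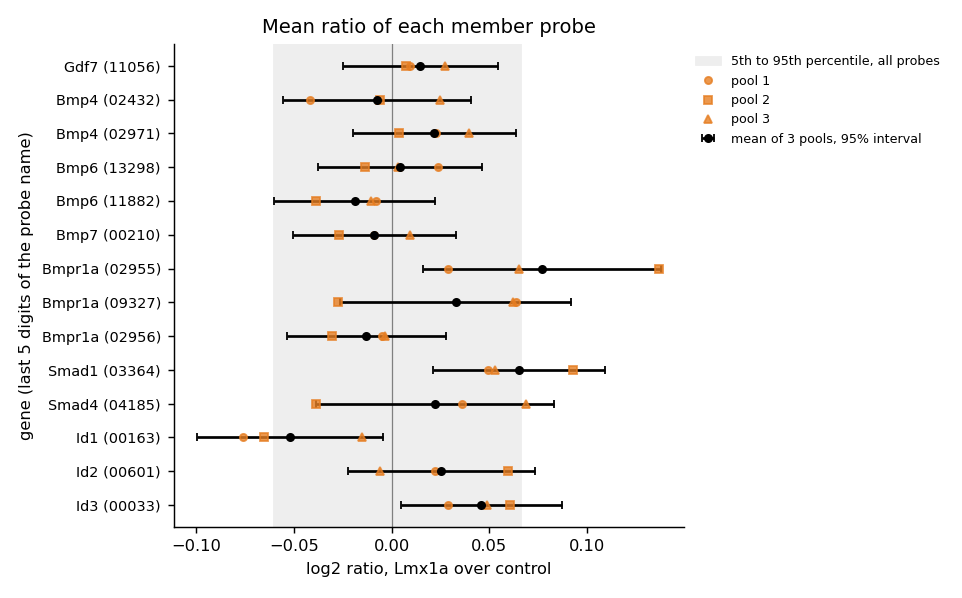
Mean log2 ratio of Lmx1a over control for each of the 14 member probes (black, with limma's 95% interval), the 3 pools (orange symbols) and, in grey, the range between the 5th and 95th percentile of all probes. Only the leading Bmpr1a probe, at 0.077, has its mean outside the grey range of -0.060 to 0.066.

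The Id genes, direct targets of BMP Smads, were detected in both channels of every array. Id1 read 523, 677 and 823 units in the Lmx1a channel with Lmx1a RNA in Cy5, against 267, 320 and 350 in the control channel. With the dyes exchanged it read 54.0, 309 and 410 units in the Lmx1a channel, against 130, 706 and 883 in the control channel. The normalised log2 ratios were 0.0058, -0.0094 and 0.136 in the first case and -0.158, -0.122 and -0.167 in the second. The 3 arrays with Lmx1a RNA in Cy3 were all lower than the 3 with Lmx1a RNA in Cy5. The pools gave -0.076, -0.066 and -0.015, a mean of -0.052 ± 0.033 or 0.965-fold, with an interval of 0.933 to 0.997 and a limma adjusted p of 0.382.

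Id2 had log2 ratios of 0.111, 0.058 and 0.0049 with Lmx1a RNA in Cy5 and of -0.067, 0.061 and -0.017 with Lmx1a RNA in Cy3. The orientations overlapped, and replicate 2 was positive in both. The mean was 0.025 ± 0.033, with an interval of 0.985-fold to 1.05-fold and a limma adjusted p of 0.727. Centring each array on its median, without loess, gave -0.00074, where the median of all probes was -0.0186.

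Id3 had log2 ratios of 0.087, 0.258 and 0.167 with Lmx1a RNA in Cy5 and of -0.030, -0.137 and -0.070 with Lmx1a RNA in Cy3. Every array of the first orientation was above 0 and every array of the second below it. The 3 pools, each averaged over its pair of arrays, gave 0.029, 0.061 and 0.049, with a mean of 0.046 ± 0.016, or 1.03-fold (log2 interval 0.005 to 0.087), and a limma adjusted p of 0.371. With the replicate block its limma adjusted p was 0.564. Id1 and Id3 thus had mean ratios of opposite sign, and for neither was the sign shared by both dye orientations.

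The effect of the dyes themselves was measured as the log2 ratio of Cy5 over Cy3 averaged over each exchange, tested with limma in the same way. Of all probes, 6.8% (2160) passed an adjusted p of 0.05, and 1 of the 14 member probes did. This was Id3, at 0.125 (95% interval 0.061 to 0.189, adjusted p 0.0436), a value larger than its ratio of Lmx1a over control. Id1 had a Cy5 over Cy3 ratio of 0.096 (adjusted p 0.0507), while Smad1 had one of -0.074 (0.0914) and Gdf7 one of -0.058 (0.0841). Across the 14 probes, 2 had 1 sign on all 3 arrays of an orientation and the opposite sign on all 3 of the other, where 15.8% of all probes did. The exchange removes such a difference from the pool means as long as both arrays of a pool carry it equally. None of the 14 had 1 sign on all 6 arrays, against 5.28% of all probes, and 8 had 1 sign in all 3 pools, against 32.5%. Those 8 include Gdf7 and a Bmpr1a probe, both detected on no array. By leading probe it was 5 of 10, against 5790 of the 17865 named genes. The pools share 1 control pool, so their signs are not independent.

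**Figure D4:**
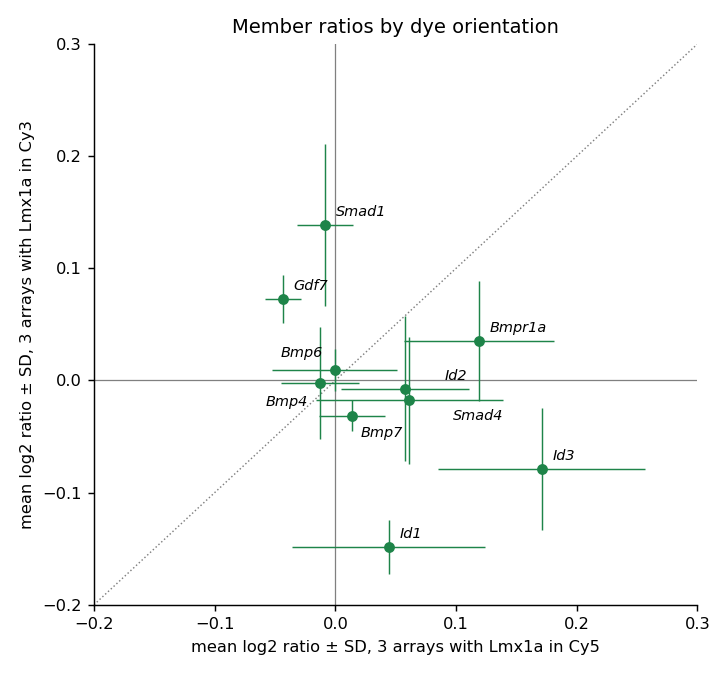
Mean log2 ratio of Lmx1a over control ± SD for each leading probe on the 3 arrays with Lmx1a RNA in Cy5 (horizontal) and the 3 with Lmx1a RNA in Cy3 (vertical); equal values would lie on the dotted line. Id3 (0.171 and -0.079) and Id1 (0.044 and -0.149) lie below the line, and Smad1 (-0.0087 and 0.139) above it.

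The other genes of the pathway were read from lists chosen by known role. No gene in them passed an adjusted p of 0.05 in limma's test over the pools. Of the 15 measured further BMP and GDF ligands, 6 were detected on no array and 1, Bmp5, was detected on every array, with a log2 ratio of 0.029 ± 0.033 (adjusted p 0.669). Their median ratio was 0.0066, or -0.0128 with median centring (all probes -0.0186), and 0 of 15 had an unadjusted p under 0.05.

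Among 11 measured receptors and coreceptors, 3 had an unadjusted p under 0.05, all with positive ratios, where 11.8% of all probes had such a p. Acvr1, a type I receptor that also signals through Smad1, was at 0.049 ± 0.026 (adjusted p 0.385) and positive on 6 of 6 arrays, and its further probes gave 0.046 and 0.011. The other two, named after their values were seen, were Bmpr1b at 0.054 ± 0.032 and Acvr2a at 0.070 ± 0.0585, receptors not detected on every array. Bmpr2, the type II partner of Bmpr1a, was at 0.026 ± 0.019 (adjusted p 0.667). The list's median was 0.011, or -0.0034 in the authors' values. Of its 11 genes, 5 were detected on every array and 1 on none. Of the 6 remaining Smads, Smad5, a close relative of Smad1, was at 0.032 ± 0.026, and Smad7, an inhibitory Smad that BMP and TGF-beta signals induce, at -0.059 ± 0.052 (adjusted p 0.422), with -0.135 on the arrays with Lmx1a RNA in Cy5 and 0.017 with Lmx1a RNA in Cy3.

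Secreted antagonists and regulators of Smads had a median of 0.018 over 21 measured genes, of which 3 had an unadjusted p under 0.05, all positive; this share was near the 11.8% of all probes. Of the 21 genes, 12 were detected on every array and 3 on none. Crim1, a membrane protein that binds BMPs, was at 0.084 ± 0.039 (adjusted p 0.221), positive on 5 of 6 arrays. Twsg1, a secreted modulator of BMP binding, was at 0.080 ± 0.045 (adjusted p 0.259), positive on 6 of 6, and its second probe, detected on no array, gave 0.027. Both had positive means in each dye orientation, but a small p, for which they were named, favours such signs. The remaining one, Skil, a repressor of Smad complexes named after its value was seen, was at 0.143 ± 0.1125 (adjusted p 0.282), with 0.269 in replicate 2.

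Further BMP target genes had a median of 0.0011 over 12, or -0.0232 with median centring (all probes -0.0186). Of these 12, 6 were detected on every array and 3 on none. Id4, the remaining member of the Id family, had the lowest ratio of this list, at -0.11 ± 0.076 (0.927-fold, interval 0.879 to 0.977, adjusted p 0.266). It was negative on 6 of 6 arrays, from -0.279 to -0.026, and in both orientations, at -0.134 with Lmx1a RNA in Cy5 and -0.086 with Lmx1a RNA in Cy3. The pools gave -0.198, -0.064 and -0.069. Msx1 and Msx2, homeobox targets of BMPs that mark the dorsal midline and are named after their values were seen, were detected on no array. The leading probe of Msx3, from the same list and also named afterwards, was detected in both channels of every array.

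All 10 measured bHLH partners and targets of Id proteins had positive mean ratios, though 8 did with plain background subtraction, with loess within print grids and with the authors' values, and 7 did with median centring. Of these 10 genes, 5 were detected on every array and 1 on none. The 10 ratios lay between 0.0011 and 0.098, with a median of 0.015, where 9206 of the 17865 named genes had one above 0. Of the 10, 3 had an unadjusted p under 0.05: the E protein genes Tcf12 and Tcf4 and, named after its value was seen, Hes1 (0.067 ± 0.062). The share over all probes at that p was 11.8%. Tcf12 was at 0.098 ± 0.052 (adjusted p 0.217) and positive on 6 of 6 arrays. Tcf4 was at 0.052 ± 0.028 (adjusted p 0.365), with 0.154 on the arrays with Lmx1a RNA in Cy5 and -0.051 with Lmx1a RNA in Cy3.

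Over 12 measured roof plate and dorsal midline genes, Lmx1a included, the median was -0.0032, with 5 of 12 above 0. Under median centring it was -0.0253, with 2 of 12 above 0, where the median of all probes was itself shifted to -0.0186. Of the 12, 3 were detected on every array (Lmx1a, Rspo1 and Zic1) and 3 on none (Msx1, Msx2 and Rspo3). Rspo1, a secreted enhancer of Wnt signals, was at -0.249 ± 0.286 (adjusted p 0.423), with a lowest pool value in replicate 2, at -0.578, beside -0.112 and -0.058 in replicates 1 and 3. The TGF-beta and activin branch had a median of -0.0042 over 14 genes, of which 4 were detected on every array and 4 on none. Its receptor gene Tgfbr1 was at 0.089 ± 0.045 (adjusted p 0.224), positive on 6 of 6 arrays, with 0.093 and, from a probe detected on no array, -0.0064 from its further probes, and Tgfb3 at 0.065 ± 0.071. With the replicate block, Lmx1a passed and 0 other genes of these lists did.

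**Figure D5:**
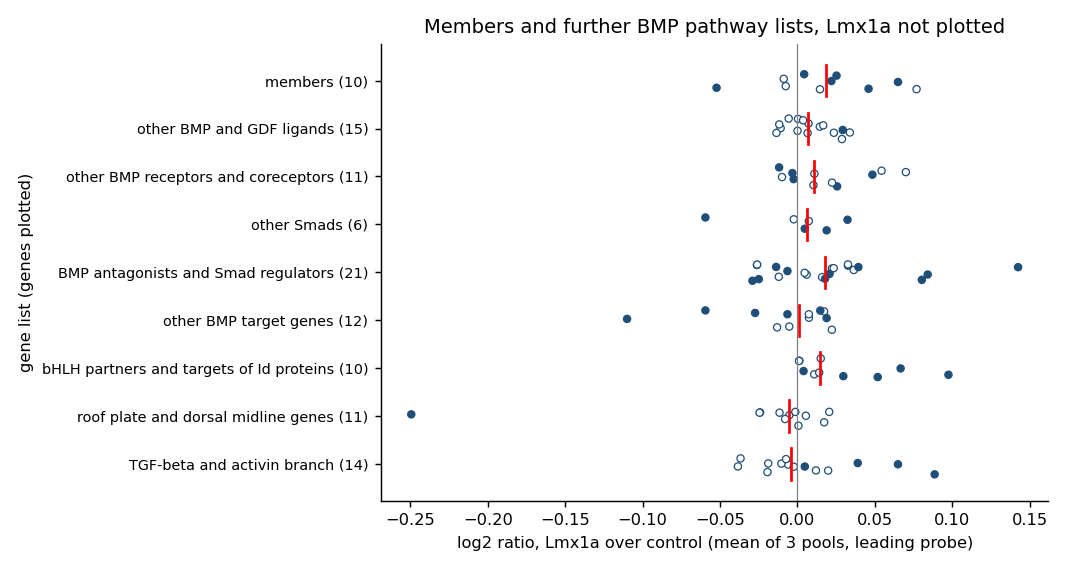
Mean log2 ratio of Lmx1a over control for the leading probe of each member and of each gene in 8 further lists, with filled symbols for probes detected in at least 1 channel of every array and red bars for list medians; Lmx1a (2.49) is not plotted. Apart from Rspo1 at -0.249, all genes lie between -0.11 and 0.143.

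The genes whose ratios over the 6 arrays were most like those of the Id genes were sought among 8253 others detected in both channels of every array. Id1 was most like Slc35b2, Zfp706 and Angel2 (Pearson r 0.997, 0.993 and 0.992), Id2 like Baalc, Dedd and Homer3 (0.994, 0.989 and 0.988) and Id3 like Rad9a, Nit2 and Atp12a (0.998, 0.998 and 0.996). Among the Id genes r was 0.765 for Id1 and Id3, 0.386 for Id1 and Id2 and 0.274 for Id2 and Id3. The points share the control pool, and the dye orientation moves with them: Atp12a, for instance, averaged 0.527 with Lmx1a RNA in Cy5 and -0.407 with Lmx1a RNA in Cy3. The highest r of 8253 candidates over 6 points is large even for unrelated genes. These values are a description of 6 arrays and carry no test.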

How the data were processed

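The deposited scanner tables hold spot intensity on a linear scale, as the pixel mean of each spot with the median and standard deviation of its local background, per the file headers. Channel 1 was Cy5 and channel 2 Cy3, per the labels. The sources used here name neither scanner nor image software. The authors' deposited table of log2 ratios, whose scale and centring no label states, followed log2 Lmx1a over control on every array (r of 0.996 to 0.999 with print-grid loess of uncorrected intensities). Medians of its columns were 0.0046, 0.0046 and 0.0050 for Lmx1a RNA labelled with Cy5, and -0.0022, -0.0039 and -0.0042 for the exchanged arrays. It served as an alternative.

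Probes were named through their array position from GEO's platform annotation, with symbols updated from RefSeq's table; 26000 of 31769 probes carried 1 symbol, 5769 no symbol and 0 more than 1. The 3223 control spots had weight 0 in the normalisation. Background was corrected by normexp with an offset of 50, which pulls ratios of dim spots towards 0, and each array was normalised by loess (span 0.3). Arrays of the same pool hold the same RNA extracts and were averaged; their deviations from the mean of their dye orientation correlated at 0.0383, 0.19 and 0.0694 across probes. Ratios were tested against 0 with lmFit and eBayes (limma 3.58.1, R 4.3.3), with Benjamini-Hochberg adjusted p over the 31769 probes and a threshold of 0.05. The fit was checked on simulated pool values with independent normal noise, for whether fitted ratios matched those put in. Dye effects and a shared control pool were not simulated. The number of arrays limits the precision.

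The members and the gene lists were chosen with earlier results of these data known. Named genes are all members, Lmx1a, from each list the genes past the threshold or else the 2 with the smallest p among those detected on every array in at least 1 channel, and for each Id gene the 3 with the highest correlation. Msx1, Msx2, Msx3, Zic1, Rspo3, Bmpr1b, Acvr2a, Skil and Hes1 fall outside that rule and were named after their values were seen. So were the cell type markers picked from the marker list. A small p favours 1 sign over arrays and dye orientations, so such signs of genes named by their p are no separate support. Of all probes, 5.28% had 1 sign on all 6 arrays. Alternatives covered background correction, normalisation, the authors' values, the replicate block, each dye orientation, the spread model, a filter on dim probes, the probe rule, the detection rule, and leaving out each replicate or the dimmest array.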

Additional observations from a re-analysis of the deposited data

Results flagged for a closer look

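For 2 member probes, all 3 arrays of a dye orientation had 1 sign and all 3 of the other orientation the opposite sign. The mean log2 ratio of Id3 was 0.171 on the 3 arrays with Lmx1a RNA in Cy5 and -0.079 on the 3 with Lmx1a RNA in Cy3, a difference of 0.25, and limma's test of Cy5 over Cy3 gave an adjusted p of 0.0436. Gdf7, detected on no array, averaged -0.044 with Lmx1a RNA in Cy5 and 0.073 with Lmx1a RNA in Cy3, a difference of -0.116, with an adjusted p of 0.0841. Of all probes, 15.8% had 1 sign on all 3 arrays of an orientation and the opposite sign on all 3 of the other.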

How the results depend on the processing

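Over the 15 alternative settings run, 0 of the member probes tested passed an adjusted p of 0.05 in each; the setting restricted to probes detected on every array held 7 of the 14. The lowest limma adjusted p of a member was 0.0605, for Id3 on the arrays with Lmx1a in Cy5 alone. Id3 was the member probe past the threshold for dye bias. On arrays of a single orientation a dye effect cannot be told apart from an effect of Lmx1a. Counts from such arrays are thus not comparable with those over the pools. The count over all probes was 0, and became 49 (6 higher, 43 lower) with median centring, 333 with the replicate block, 993 with Lmx1a in Cy5 only, 215 with Lmx1a in Cy3 only, 1 without the dimmest array and 0 to 1 on leaving out a replicate. The count with dye bias was 2160, and became 4261 without background correction, 1 with plain subtraction and 24782 with median centring; leaving out a replicate gave 503 to 1514. Member ratios changed sign as follows. Without background correction Gdf7 was at -0.00059, Bmp6 at -0.0042 and Bmp7 at 0.0085, with the authors' values at -0.0014, -0.0053 and 0.0015. Plain subtraction gave -0.413 for Gdf7, and median centring -0.027 for Gdf7, 0.0084 for Bmp4 and -0.00074 for Id2. Under median centring the median of all probes was -0.0186. With Lmx1a in Cy5 only Gdf7 was at -0.044, Bmp6 at -0.00066, Bmp7 at 0.014, Smad1 at -0.0087 and Id1 at 0.044; in Cy3 only, Smad4 was at -0.018, Id2 at -0.0074, Id3 at -0.079, the dimmer Bmp6 probe at 0.0093 and the Bmpr1a probe detected on no array at 0.025. Leaving out a replicate gave -0.024 to 0.0096 for Bmp4, -0.0053 to 0.013 for Bmp6, -0.018 to 0.00015 for Bmp7 and -0.0014 to 0.052 for Smad4. Averaged over a gene's probes, Bmp4 was at 0.0072 and Bmp6 at -0.0073. The cause was not tested. The leading Bmpr1a probe kept its sign in all 14 settings that held it, from 0.0353 to 0.148. Quantile scaling between arrays, the replicate block and the spread model left its ratio at 0.077, so they could not change a sign. The pooled ratios of Smad1, Id1 and Id3 changed sign in 1 of 15 settings each, and their adjusted p stayed above 0.05 (0.117 to 0.868, 0.0631 to 0.815 and 0.0605 to 0.931). The pooled ratios of Smad1, Id1 and Id3 were also left unchanged by those settings and by the filter on dim probes. With plain subtraction Smad1 was at 0.128 and Id1 at -0.072. Signal over background limits Gdf7 and the Bmpr1a probe detected on no array, whose ratios are between spots at background.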
